A study of Mus musculus with 73 samples.

Results

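Loss of Znrf3 in the adrenal cortex of male (XY) mice was examined at 4 weeks by RNA sequencing of whole adrenal glands, in 4 Znrf3 cKO libraries and 4 control libraries. These are 8 of the 73 libraries of the series, and they were taken by their labels of sex, genotype and age alone. The Znrf3 cKO mice carried Sf1-Cre together with 2 floxed Znrf3 alleles (Sf1-Cre;Znrf3F/F), and the controls are labelled as wild-type. Both groups were described as C57Bl/6 littermates, from a breeding scheme that also held the mTmG reporter. The Cre is driven by regulatory regions of Sf1 (Nr5a1), which are active in every steroidogenic cell of the cortex and also in other Sf1-positive organs such as the gonads. Medullary, capsular, vascular and immune cells are therefore not the intended targets, but their RNA is in each library. The remaining libraries cover males and females up to 78 weeks, and those of males at 6 weeks and females at 4 weeks (8 libraries each) are used here where the results differ.

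ZNRF3 is an E3 ubiquitin ligase of the cell membrane that marks Frizzled receptors for removal, so that less WNT signal enters the cell. R-spondins, bound to LGR receptors, clear ZNRF3 from the surface and thereby sustain WNT signalling. In the adrenal cortex, R-spondin from the capsule supports the outer zona glomerulosa, which makes aldosterone, whereas the inner zona fasciculata makes glucocorticoids under the control of ACTH. The medulla at the centre holds chromaffin cells, which come from the neural crest and make catecholamines.

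Values are RPKM as deposited, in which reads are scaled to exon length and to a factor for each library. Over the 8 libraries this factor matched a median-of-ratios size factor up to a constant, with a coefficient of variation of 0.048% between libraries. Libraries are numbered 1 to 4 within each group only to name them. Of 54838 genes in the table, 19106 had a mean of at least 0.5 RPKM in Znrf3 cKO or control adrenals and were tested with limma on log2(RPKM + 1). Fold changes given as log2 values are on that scale, which understates the change of low genes. Adjusted p values are those of limma with Benjamini-Hochberg adjustment over all tested genes, and the threshold was 0.05. Reads recovered from the RPKM steps amounted to 37.3M to 45.0M in Znrf3 cKO libraries and 28.6M to 39.98M in controls. Whether the 4 libraries of a group stem from different mice is not stated in the labels, and the p values therefore refer to library-to-library spread. Xist was at most 0.0657 RPKM in every library, and the Y-linked Ddx3y was between 16.4 and 34.4 RPKM, as the male label requires.

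Znrf3 itself stood at 11.3, 9.03, 10.2 and 9.20 RPKM in Znrf3 cKO libraries 1 to 4, against 4.85, 4.66, 3.65 and 4.32 RPKM in control libraries. The gene-level RPKM was therefore higher without overlap in the knockouts. Recombination of the floxed alleles removes the exons that encode the RING domain, and the RPKM counts the whole gene, so this value does not check the deletion, which was not tested at exon level.

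In Znrf3 cKO adrenals, 430 genes rose (2.25% of the genes tested) and 1050 fell (5.5%), which makes 7.75% in either direction. The median log2 fold change over all tested genes was 0.02. Of the 1480 called genes, 663 stayed past the threshold whichever of the 8 libraries was left out. Without Znrf3 cKO library 1 the total was 702, with 149 rises and 553 falls, and without Znrf3 cKO library 3 it was 875, with 207 rises and 668 falls. The count of rises was also sensitive to the other libraries, at 245 without control library 3, 253 without control library 2, 268 without Znrf3 cKO library 2, 272 without control library 1 and 277 without control library 4. Only 32 of the rises but 316 of the falls reached a log2 fold change of 1 in size. The chromaffin, capsule, and IGF and imprinted lists had the most falls, at 27 of 32, 11 of 17 and 8 of 24 tested genes. Such counts depend on list length. Some shorter lists had a larger share than the last, such as zona glomerulosa (6 of 15) and the R-spondin module (3 of 6). The plot of log2 fold changes by gene list shows them.

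**Figure D1:**
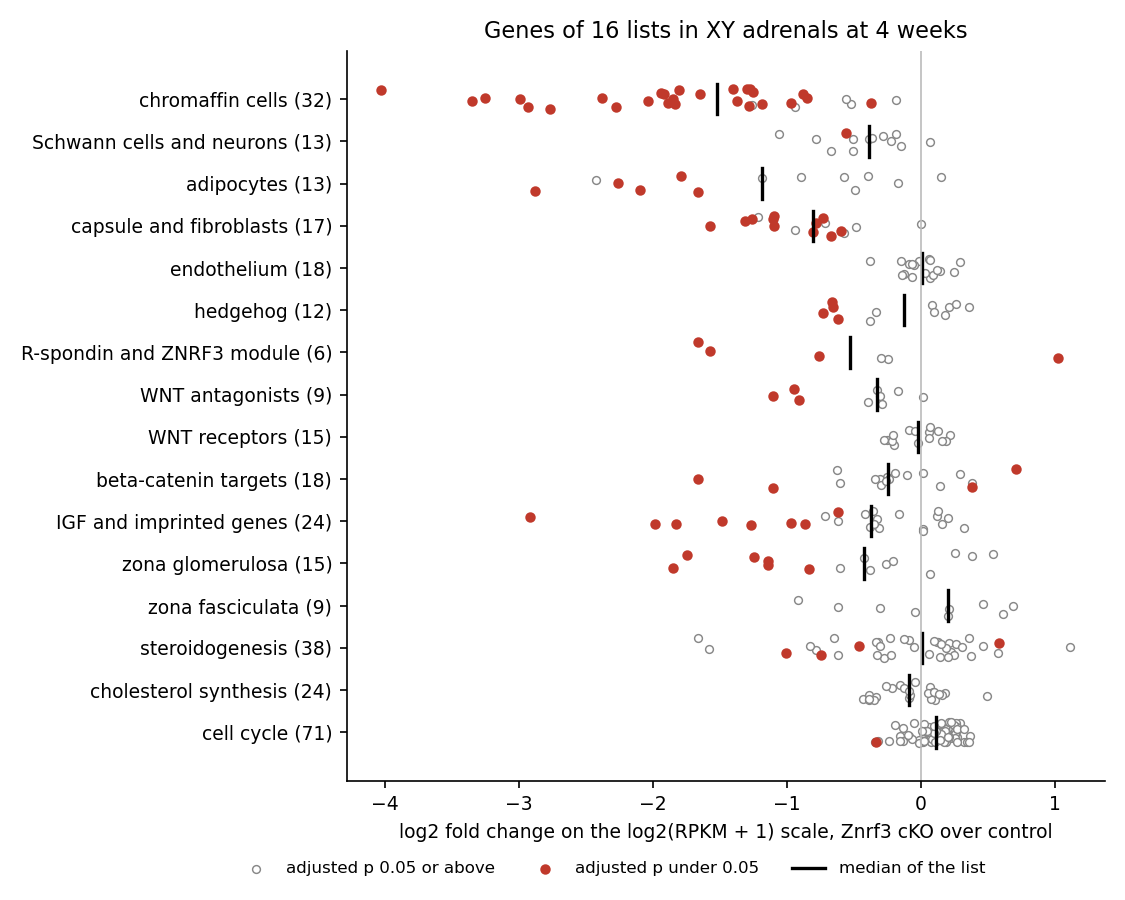
Log2 fold changes, on the log2(RPKM + 1) scale, of Znrf3 cKO over control adrenals at 4 weeks for the genes of 16 lists (number tested in brackets), with filled points for adjusted p under 0.05, open points for the others and a line at each list's median. Chromaffin genes lie at a median of -1.53 and all below 0, whereas endothelial genes centre on 0.01 with no filled point.

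Chromaffin cells gave the lowest list median. The list held 32 tested genes, of which 27 fell and none rose, where 5.5% of all tested genes fell, with a median log2 fold change of -1.53 against 0.02 over all genes tested, and 21 of the 27 passed in every fit that left a library out. The summed level of the 32 genes was 718, 653, 798 and 467 RPKM in Znrf3 cKO libraries 1 to 4, against 3182, 3939, 3185 and 3189 RPKM in control libraries. Every knockout library was thus below every control, and Znrf3 cKO library 4 was the lowest. In whole glands, fewer chromaffin cells, less RNA per chromaffin cell and a larger share of RNA from the cortex cannot be told apart.

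Every step of catecholamine synthesis that was read had less RNA in Znrf3 cKO adrenals. Th, tyrosine hydroxylase and the first step, had 20.02, 24.4, 31.1 and 10.2 RPKM in Znrf3 cKO libraries, against 129, 247, 159 and 146 RPKM in controls. The means differed 7.95-fold (log2 fold change -2.99, SE 0.323, adjusted p = 0.00142). Ddc, the decarboxylase of the second step, had 2.76, 6.63, 3.14 and 0.959 RPKM in Znrf3 cKO libraries and 14.3, 12.2, 14.7 and 10.0 RPKM in controls, a 3.8-fold difference with adjusted p = 0.0167 that became 0.0574 without Znrf3 cKO library 1. Dbh, which makes noradrenaline inside the vesicle, had 24.2, 34.3, 32.7 and 9.74 RPKM in Znrf3 cKO libraries and 109, 151, 103 and 100.8 RPKM in controls (log2 fold change -2.27, adjusted p = 0.0064). The groups did not overlap for any of these enzymes. Among vesicle genes, Slc18a1, a monoamine transporter, averaged 1.23 ± 0.522 RPKM in Znrf3 cKO and 7.09 ± 0.966 RPKM in control libraries (SD, n = 4 each, as in all means below), with adjusted p = 0.00107. Cyb561, which supplies electrons to Dbh, fell less, to 21.2 ± 3.59 RPKM in Znrf3 cKO against 51.3 ± 3.40 RPKM in control libraries (log2 fold change -1.25, adjusted p = 0.00107).

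Granins and peptides showed the same direction. Chgb, a granin of dense-core vesicles, had 182, 103, 185 and 56.0 RPKM in Znrf3 cKO libraries, against 1091, 1479, 984 and 1038 RPKM in controls (log2 fold change -3.25, SE 0.357, adjusted p = 0.00144). Npy, a peptide stored with catecholamines, had 30.7, 62.0, 47.0 and 21.3 RPKM in Znrf3 cKO libraries and 278, 367, 287 and 244 RPKM in controls, a 7.31-fold difference (adjusted p = 0.0011). The groups were far apart for both genes, and Znrf3 cKO library 4 was again the lowest. Penk, the precursor of enkephalins, changed by -2.04 on the log2 scale (adjusted p = 0.00448), and Scg3 and Scg5, a granin and a chaperone of the secretory pathway, by -1.91 and -2.38. Pcsk1, which cleaves peptide precursors, averaged 0.783 ± 0.307 RPKM in Znrf3 cKO and 5.79 ± 0.724 RPKM in control libraries. A few members of the list did not pass. Cpe, a carboxypeptidase of many endocrine cells, had 256, 233, 257 and 273 RPKM in Znrf3 cKO libraries and 264, 256, 339 and 309 RPKM in controls, with adjusted p = 0.362. Syt1, a calcium sensor of synaptic and chromaffin vesicles, also missed the threshold (adjusted p = 0.0957), with 0.608, 3.21, 0.740 and 0.263 RPKM in Znrf3 cKO libraries and 3.39, 2.42, 7.10 and 3.03 RPKM in controls.

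The transcription factors that specify the sympathoadrenal lineage were lower too. Hand2 had 1.74, 2.61, 3.05 and 0.817 RPKM in Znrf3 cKO libraries, against 11.1, 10.1, 8.77 and 8.27 RPKM in controls, a 4.66-fold difference without overlap (log2 fold change -1.85, adjusted p = 0.00268). The log2 fold changes of Phox2a, Gata3, Gata2 and Insm1 were -1.65, -1.40, -1.28 and -0.88, and Chrnb4, a subunit of the nicotinic receptor that receives the splanchnic input, changed by -1.30. All of these passed the threshold in every fit that left a library out. Of 13 tested markers of Schwann cells and neurons, 1 fell and none rose (median -0.39), where 5.5% of all tested genes fell. Outside the lists, the genes with the largest falls included further neuroendocrine genes: Resp18 and Ptprn, both of secretory granules, changed by -2.54 and -2.05, and Baiap3, which acts in dense-core vesicle traffic, and Eef1a2, an elongation factor of neurons and muscle, by -1.92 and -2.01.

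Many neuroendocrine promoters hold the full cAMP response element, TGACGTCA, to which CREB-family factors bind and which reads the same on both strands. Promoters from RefSeq (GRCm38.p6), with 250 bases before the start, were searched for it on both strands, and 17 of the 32 tested chromaffin genes had a single promoter entry. The motif stood in 4 of these 17 (23.5%), against 508 of 32851 promoters overall (1.55%), a figure that counts every entry, also of genes with several. The list was drawn by cell type and 27 of its 32 tested genes fell. The share therefore describes the list and not the effect of the knockout. The 4 stretches are shown as examples, with the motif in capitals. They lie on the minus strand at chr1:79440047-79440134 for Scg2, on the plus strand at chr2:132781530-132781617 for Chgb, on the minus strand at chr7:142899996-142900080 for Th and on the plus strand at chr13:75089739-75089826 for Pcsk1.
Scg2: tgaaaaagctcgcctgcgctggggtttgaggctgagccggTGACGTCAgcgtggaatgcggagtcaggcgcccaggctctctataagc
Chgb: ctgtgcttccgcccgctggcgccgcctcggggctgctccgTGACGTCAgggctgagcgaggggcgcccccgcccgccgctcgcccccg
Th: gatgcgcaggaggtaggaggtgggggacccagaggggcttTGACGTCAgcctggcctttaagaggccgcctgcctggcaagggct
Pcsk1: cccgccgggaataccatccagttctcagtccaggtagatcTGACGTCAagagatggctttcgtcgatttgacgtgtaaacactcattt
The first base of the motif lay 68 bases before the start in Scg2, 72 in Chgb, 45 in Th and 78 in Pcsk1. A match of letters is a description of these windows, and binding was not measured.

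Markers of the capsule and fibroblasts were a second group that fell. Of 17 tested markers of the capsule and fibroblasts, 11 fell and none rose (median log2 fold change -0.81), where 5.5% of all tested genes fell. Of the 11, 8 passed in every fit that left a library out. Their summed level was 125, 186, 151 and 95.3 RPKM in Znrf3 cKO libraries 1 to 4, against 290.4, 267, 257 and 292 RPKM in control libraries. The groups did not overlap, and Znrf3 cKO library 2 was nearest to the controls. Whole-gland RNA gives no position within the gland. Fewer of these cells, less RNA per cell and a larger share of RNA from the cortex cannot be told apart here either. Rspo3, the R-spondin of the capsule, had 2.92, 3.26, 3.93 and 1.10 RPKM in Znrf3 cKO libraries, against 11.1, 9.80, 8.0 and 10.6 RPKM in controls (log2 fold change -1.57, SE 0.245, adjusted p = 0.00654). Gli1, which marks capsular cells that receive hedgehog signal, averaged 0.824 ± 0.266 RPKM in Znrf3 cKO and 2.00 ± 0.141 RPKM in control libraries (adjusted p = 0.00752). Tcf21 and Nr2f2, transcription factors of capsular and stromal cells, changed by -0.67 and -0.59.

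Several matrix proteins of fibroblasts were among the falls. Dcn, decorin, had 16.1, 21.9, 17.8 and 14.2 RPKM in Znrf3 cKO libraries and 39.6, 34.6, 58.5 and 48.8 RPKM in controls (log2 fold change -1.32, adjusted p = 0.00391). Ogn and Fbln1, both extracellular matrix proteins, changed by -1.10 and -1.10, and Pdgfra, the receptor of fibroblasts for PDGF, by -0.78. Lum, lumican, changed by -1.26 with adjusted p = 0.0187, but its adjusted p was 0.057 without Znrf3 cKO library 1 and 0.0508 without control library 1. Efemp1, a fibulin outside the list, was among the largest falls, with 3.13, 4.68, 4.18 and 2.09 RPKM in Znrf3 cKO libraries, against 15.3, 16.1, 14.4 and 18.98 RPKM in controls (4.60-fold, adjusted p = 0.000845). Bdkrb2, the bradykinin B2 receptor, had 0.452, 0.648, 0.50 and 1.04 RPKM in Znrf3 cKO libraries and 4.33, 6.54, 10.9 and 9.60 RPKM in controls, an 11.9-fold difference (adjusted p = 0.0012).

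Endothelial genes did not share this direction. None of 18 tested endothelial markers passed the threshold in either direction, and their median was 0.01. Their summed level was 349, 317, 355 and 198 RPKM in Znrf3 cKO libraries and 349, 349, 242 and 237 RPKM in controls, so that the groups overlapped. Of 10 tested genes of mural cells, 1 fell and none rose, where 5.5% of all tested genes fell.

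**Figure D2:**
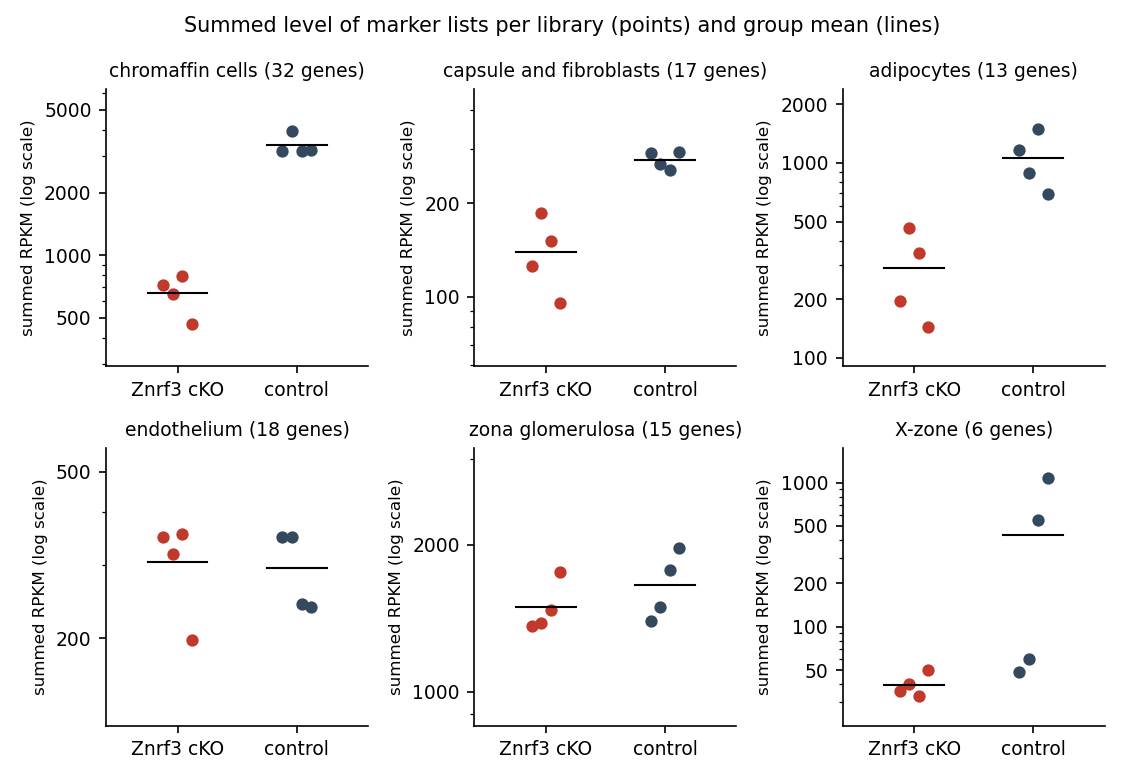
Summed RPKM (log scale) of 6 marker lists in each library of Znrf3 cKO and control adrenals at 4 weeks, with lines at the group means. Chromaffin, capsule and adipocyte sums do not overlap between the groups, endothelial and zona glomerulosa sums do, and the X-zone sums of the controls span 48.2 to 1081 RPKM.

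Adipocyte genes were read because the gland lies in fat, which was trimmed away before extraction. Their summed level was 196, 466, 347 and 145 RPKM in Znrf3 cKO libraries, against 1168, 891, 1497 and 694 RPKM in control libraries. The groups did not overlap, but each spread more than 2-fold between its libraries. Of 13 tested genes, 5 fell and none rose (median -1.18), where 5.5% of all tested genes fell. The number of falls was 3 without Znrf3 cKO library 1 and 8 without Znrf3 cKO library 2. Cfd, adipsin, had 35.9, 92.7, 112 and 55.4 RPKM in Znrf3 cKO libraries and 667, 349, 865 and 322 RPKM in controls (log2 fold change -2.88, adjusted p = 0.00507). Cidec and Plin4, of the lipid droplet, changed by -2.10 and -1.79. Adipoq, adiponectin, changed by -2.26 with adjusted p = 0.0185, which became 0.0655 without Znrf3 cKO library 1 and 0.0515 without control library 3, and Lpl, lipoprotein lipase, by -1.66 with adjusted p = 0.0157, which became 0.057 without Znrf3 cKO library 1. In males at 6 weeks 2 of 13 adipocyte genes rose and none fell, with a median of 1.19, where 2.81% of all tested genes rose, and in females at 4 weeks 9 of 13 fell and none rose, with a median of -1.58, where 9.55% of all tested genes fell. Orm3 and Rbp7, which are outside the list and are expressed in fat among other tissues, changed by -2.17 and -2.11 at 4 weeks. How far remaining fat contributes to genes that fat shares with the cortex or capsule was not tested.

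WNT pathway genes were described by their place in the pathway. Of 8 tested ligand and export genes, 2 fell and none rose, where 5.5% of all tested genes fell. Wnt4, the ligand of the zona glomerulosa, had 38.1, 35.4, 39.3 and 23.3 RPKM in Znrf3 cKO libraries and 51.9, 47.2, 28.5 and 32.2 RPKM in controls, and the groups overlapped (adjusted p = 0.657). Wnt2b, a ligand of the capsule, had 2.61, 4.21, 3.07 and 1.92 RPKM in Znrf3 cKO libraries, against 6.56, 5.52, 6.81 and 8.53 RPKM in controls (log2 fold change -1.01, adjusted p = 0.0122), and Wnt6 averaged 0.450 ± 0.0817 RPKM in Znrf3 cKO and 1.48 ± 0.247 RPKM in control libraries (adjusted p = 0.00268). The Frizzled and co-receptor genes, which encode the proteins that ZNRF3 acts on and their partners, gave no call in either direction among 15 tested, with a median of -0.02.

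Within the R-spondin module, 3 of 6 tested genes fell and Znrf3 rose, where 5.5% of all tested genes fell and 2.25% rose. Lgr5, an R-spondin receptor, had 0.574, 0.420, 0.647 and 0.313 RPKM in Znrf3 cKO libraries, against 3.74, 3.26, 4.70 and 3.28 RPKM in controls. It was 7.67-fold lower without overlap (log2 fold change -1.67, SE 0.122, adjusted p = 0.000409). Lgr4, the abundant receptor of the family, had 19.6, 17.9, 17.3 and 29.2 RPKM in Znrf3 cKO libraries and 20.2, 20.4, 30.7 and 28.8 RPKM in controls (adjusted p = 0.525). Rspo1, the other R-spondin of the capsule, averaged 0.740 ± 0.249 RPKM in Znrf3 cKO and 1.94 ± 0.36 RPKM in control libraries (adjusted p = 0.00948), and Rspo3 is given above with the capsule. Rnf43, the homologue of Znrf3, averaged 0.782 ± 0.276 RPKM in Znrf3 cKO and 1.18 ± 0.232 RPKM in control libraries (adjusted p = 0.257).

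Among 9 tested antagonists, 3 fell and none rose, where 5.5% of all tested genes fell. Apcdd1, a membrane antagonist of WNT, had 4.63, 4.95, 4.83 and 3.09 RPKM in Znrf3 cKO libraries, against 10.8, 8.99, 9.94 and 12.2 RPKM in controls (log2 fold change -1.10, adjusted p = 0.0028). Sfrp1, which binds WNT ligands outside the cell, changed by -0.95 (adjusted p = 0.00277) and Dkk3, of the Dickkopf family, by -0.91 (adjusted p = 0.00683). Notum, which removes the lipid from WNT ligands, had 1.43, 1.29, 1.69 and 0.478 RPKM in Znrf3 cKO libraries and 1.5, 1.38, 1.85 and 2.05 RPKM in controls (adjusted p = 0.392).

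Commonly used target genes of β-catenin did not move one way. Of 18 tested, 2 rose and 2 fell (median -0.24), where 2.25% of all tested genes rose and 5.5% fell. None rose without Znrf3 cKO library 1, 1 without Znrf3 cKO library 3 and 3 without Znrf3 cKO library 4. The falls were Lgr5 and Apcdd1. Tnfrsf19, a receptor of the TNF family, had 42.0, 32.0, 37.1 and 34.3 RPKM in Znrf3 cKO libraries, against 24.4, 26.8, 18.1 and 18.6 RPKM in controls (log2 fold change 0.71, adjusted p = 0.0186), but its adjusted p was 0.0629 without Znrf3 cKO library 1 and 0.0569 without Znrf3 cKO library 3. Tcf7, a transcription factor that β-catenin binds, had 24.9, 25.5, 24.4 and 21.8 RPKM in Znrf3 cKO libraries and 18.9, 17.3, 18.6 and 18.3 RPKM in controls (log2 fold change 0.38, adjusted p = 0.0147, or 0.0564 without Znrf3 cKO library 1). Axin2, a feedback inhibitor, had 13.5, 12.4, 15.1 and 6.52 RPKM in Znrf3 cKO libraries and 10.3, 8.51, 9.13 and 8.64 RPKM in controls. Znrf3 cKO libraries 1 to 3 lay above every control and Znrf3 cKO library 4 lay below them all, and the test gave adjusted p = 0.499. Other targets also overlapped between the groups: Nkd1 changed by -0.62 (adjusted p = 0.211), Lef1 by -0.25 (adjusted p = 0.209), Ccnd1 by -0.34 (adjusted p = 0.515) and Myc by 0.01 (adjusted p = 0.969).

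**Figure D3:**
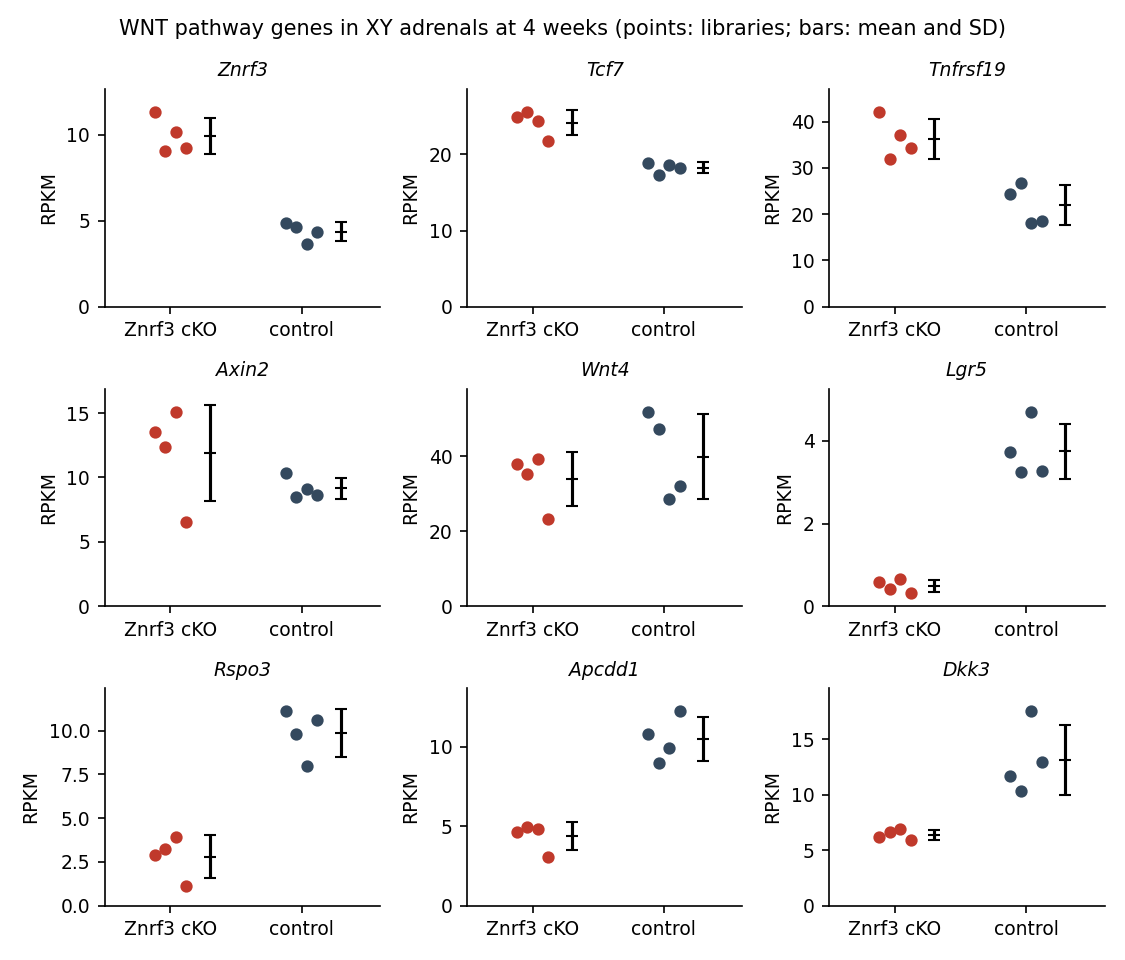
RPKM of 9 WNT pathway genes in each library of Znrf3 cKO and control adrenals at 4 weeks, with the mean and SD (n = 4 each) beside the points. Lgr5, Rspo3, Apcdd1 and Dkk3 are lower and Znrf3, Tcf7 and Tnfrsf19 higher in every Znrf3 cKO library, whereas Axin2 and Wnt4 overlap.

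Planar polarity and hedgehog genes gave a few falls, where 5.5% of all tested genes fell. Of 14 tested planar polarity genes 3 fell and none rose, with 7 above and 7 below 0, among them the cadherins Celsr2 (-0.44) and Celsr3 (-0.95, adjusted p = 0.00073). Of 12 tested hedgehog genes 4 fell and none rose (median -0.13), and only 1 did without Znrf3 cKO library 1. Gli1, given above, was that one. Hhip, a decoy receptor, changed by -0.66 (adjusted p = 0.0189, or 0.0593 without Znrf3 cKO library 1 and 0.0541 without control library 3). The ligand Shh, which zona glomerulosa cells send to the capsule, had 3.96, 5.64, 7.16 and 2.19 RPKM in Znrf3 cKO libraries and 8.72, 9.23, 2.89 and 5.34 RPKM in controls (adjusted p = 0.617).

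Few genes of steroid synthesis passed the threshold. Of 24 tested genes of cholesterol synthesis none passed in either direction (median -0.09). Of 38 tested genes of cholesterol delivery, steroid enzymes and their regulators, 1 rose and 3 fell, with a median of 0.01. Over all tested genes 2.25% rose and 5.5% fell, so the counts of this list lie near the general share. The rise was called in the fits without control library 3 or 4 and in no other that left a library out, and without Znrf3 cKO library 4 the steroidogenesis list had 9 falls. Star, which carries cholesterol into the mitochondrion, had 1369, 1745, 1289 and 2821 RPKM in Znrf3 cKO libraries and 2228, 2698, 3009 and 4186 RPKM in controls (log2 fold change -0.78, adjusted p = 0.139). Cyp11a1, the side-chain cleavage enzyme, averaged 1286 ± 108 RPKM in Znrf3 cKO and 1182 ± 184 RPKM in control libraries (adjusted p = 0.612), and Cyp21a1, the 21-hydroxylase, 3439.7 ± 442 RPKM in Znrf3 cKO and 3661 ± 492 RPKM in control libraries (adjusted p = 0.773). Hsd3b1, the 3β-hydroxysteroid dehydrogenase, had 9112, 7607, 8249.5 and 10065 RPKM in Znrf3 cKO libraries and 5629.9, 6749.7, 5911 and 7061 RPKM in controls. The groups did not overlap, but the adjusted p was 0.0697. The falls that held in every fit without a library were Cyb5a, cytochrome b5 (log2 fold change -1.0, adjusted p = 0.0136), and Lipe, the hormone-sensitive lipase, which fat also expresses (log2 fold change -0.74, adjusted p = 0.00868). Srd5a1, a 5α-reductase, averaged 21.7 ± 7.74 RPKM in Znrf3 cKO and 9.69 ± 4.34 RPKM in control libraries (adjusted p = 0.064).

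Zona glomerulosa markers divided by gene. Of 15 tested, 6 fell and none rose (median -0.42), where 5.5% of all tested genes fell. Of the 6, 5 passed in every fit that left a library out. Cyp11b2, the aldosterone synthase that defines the zone, had 579, 503, 550.2 and 779 RPKM in Znrf3 cKO libraries and 580.1, 540.0, 771 and 1066 RPKM in controls, with adjusted p = 0.568. By contrast, Kcnk9, a background potassium channel, had 10.3, 13.3, 12.7 and 10.8 RPKM in Znrf3 cKO libraries, against 37.9, 32.9, 61.3 and 52.6 RPKM in controls (3.93-fold, log2 fold change -1.85, adjusted p = 0.00113). Its relative Kcnk3 averaged 332 ± 34.6 RPKM in Znrf3 cKO and 315 ± 16.6 RPKM in control libraries (adjusted p = 0.724). Vsnl1, a neuronal calcium sensor used as a marker of the zone, had 2.97, 3.77, 4.00 and 3.0 RPKM in Znrf3 cKO libraries, against 10.97, 9.18, 18.1 and 19.5 RPKM in controls (log2 fold change -1.75, adjusted p = 0.00307). Of the angiotensin receptors, Agtr1b changed by -1.14 (adjusted p = 0.00511) and the more abundant Agtr1a by -0.42 (adjusted p = 0.125). Rgs4, a brake on G-protein signals, changed by -1.25 and Pcp4, a calmodulin regulator, by -1.14, and Dab2, an endocytic adaptor of the zone, by -0.60 without passing the threshold (adjusted p = 0.205).

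Of 17 tested genes of aldosterone synthesis and ion transport, several of which are also zona glomerulosa markers, 5 fell and none rose (median -0.26, with 5 above 0), where 5.5% of all tested genes fell. Those outside the marker list that fell were Cacna1d, Atp1b1 and Ren1, which encodes renin and averaged 0.149 RPKM in Znrf3 cKO and 0.542 RPKM in control libraries (adjusted p = 0.0157). Cacna1d, an L-type calcium channel, averaged 1.07 ± 0.205 RPKM in Znrf3 cKO and 2.96 ± 0.587 RPKM in control libraries (adjusted p = 0.00398). Atp1b1, a subunit of the sodium pump, had 3.91, 7.38, 4.33 and 2.98 RPKM in Znrf3 cKO libraries, against 12.2, 10.2, 18.2 and 14.7 RPKM in controls (log2 fold change -1.42, adjusted p = 0.00918). Chromaffin cells express calcium channels and the sodium pump as well, and their part in these values was not tested.

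Zona fasciculata and X-zone genes gave few calls. None of 9 tested zona fasciculata markers passed in either direction (median 0.20), with Cyp11b1 at 2202 ± 285 RPKM in Znrf3 cKO and 1901 ± 234 RPKM in control libraries and the ACTH receptor Mc2r at 195 ± 17.8 RPKM in Znrf3 cKO and 171 ± 28.4 RPKM in control libraries. The X-zone is a fetal remnant of the inner mouse cortex that regresses in males around puberty. Akr1c18, its standard marker, had 0.369, 5.79, 0.262 and 4.45 RPKM in Znrf3 cKO libraries, against 2.82, 23.1, 490.4 and 997 RPKM in controls. Control libraries 3 and 4 were far above all others, so that the controls did not form a single level (adjusted p = 0.124). Srd5a2, a 5α-reductase, ran the other way among the controls, with 595, 686, 455 and 434 RPKM in Znrf3 cKO libraries and 837, 759, 113 and 166 RPKM in controls. Cyp2f2, another X-zone gene, had 0.747, 0.290, 0.390 and 0.867 RPKM in Znrf3 cKO libraries and 1.66, 5.10, 16.3 and 33.5 RPKM in controls. Its adjusted p was 0.0493 and was 0.0699 to 0.122 without any 1 of 7 libraries, the exception being control library 1.

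Among 71 tested cell cycle genes, 1 fell and none rose (median 0.11), where 5.5% of all tested genes fell and 2.25% rose. Of the 32 genes of G2 and mitosis, 31 had a log2 fold change above 0 (median 0.23), but none passed even an unadjusted p of 0.05. Their summed level was 63.9, 97.4, 70.6 and 61.9 RPKM in Znrf3 cKO libraries, against 66.3, 62.0, 36.8 and 71.3 RPKM in controls. The groups overlapped, with Znrf3 cKO library 2 the highest and control library 3 the lowest. Mki67, a marker of cycling cells, had 6.70, 9.47, 6.20 and 5.79 RPKM in Znrf3 cKO libraries and 6.15, 5.86, 3.21 and 6.87 RPKM in controls (adjusted p = 0.443), Top2a changed by 0.29 (adjusted p = 0.462) and Ccnb1 by 0.26 (adjusted p = 0.429).

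Immediate early genes, which respond within minutes to stimuli and handling, were lower in part. Of 18 tested, 4 fell and none rose (median -0.53), where 5.5% of all tested genes fell. Of the 4, 2 passed in every fit that left a library out. Only these 2 were called without control library 1, without control library 2 or without any 1 of the Znrf3 cKO libraries, and 3 were called without control library 4. Zfp36, which promotes decay of short-lived mRNA, had 6.24, 6.11, 6.47 and 8.69 RPKM in Znrf3 cKO libraries, against 13.4, 15.4, 14.7 and 14.2 RPKM in controls (log2 fold change -0.98, adjusted p = 0.00156), and Ier3 changed by -1.01 (adjusted p = 0.00846). The nuclear receptor Nr4a1, which ACTH induces, had 56.1, 47.3, 51.9 and 359 RPKM in Znrf3 cKO libraries and 234, 392.3, 280.5 and 160.1 RPKM in controls (adjusted p = 0.182). Its relative Nr4a2 had 1.57, 1.36, 1.27 and 40.2 RPKM in Znrf3 cKO libraries and 15.3, 26.1, 9.65 and 11.1 RPKM in controls (adjusted p = 0.33). For both, Znrf3 cKO libraries 1 to 3 lay below every control, whereas Znrf3 cKO library 4 lay within the controls for Nr4a1 and above them for Nr4a2. Among 19 tested genes of the circadian clock 1 rose and 2 fell, where 2.25% of all tested genes rose and 5.5% fell. Of these clock genes, Hlf, an output factor, held in every fit without a library (log2 fold change -1.0, adjusted p = 0.00288). The time of day and the handling at collection are not given in the labels, and their part was not tested.

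A list that joins IGF factors, receptors and binding proteins with imprinted genes gave a further group of falls. Of 24 tested genes of this IGF and imprinted list, 8 fell and none rose (median -0.37), where 5.5% of all tested genes fell. Of the 8, 7 passed in every fit that left a library out. Dlk1, a Notch-related membrane protein of progenitor and chromaffin cells, had 5.14, 4.06, 8.22 and 2.61 RPKM in Znrf3 cKO libraries, against 45.1, 42.3, 40.8 and 39.1 RPKM in controls. It was 8.35-fold lower with a wide gap between the groups (log2 fold change -2.92, SE 0.243, adjusted p = 0.000514). Meg3 and Rian, long noncoding RNAs expressed from the other parental allele of the same cluster on chromosome 12, fell as well. Meg3 had 24.4, 25.5, 38.8 and 26.0 RPKM in Znrf3 cKO libraries, against 83.4, 74.3, 88.9 and 75.9 RPKM in controls (log2 fold change -1.48, adjusted p = 0.000989), and Rian changed by -1.27 (adjusted p = 0.00646). Genes from opposite alleles of the cluster thus both fell.

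Nnat, a small membrane protein of neuroendocrine cells, averaged 7.17 ± 3.26 RPKM in Znrf3 cKO and 30.0 ± 5.14 RPKM in control libraries (log2 fold change -1.99, adjusted p = 0.00261). Ndn, a regulator of neuronal growth, changed by -0.86 and Peg3, a zinc-finger factor, by -0.97. Igfbp6, an IGF-binding protein, had 5.44, 6.71, 10.6 and 4.17 RPKM in Znrf3 cKO libraries, against 31.3, 30.8, 21.2 and 19.5 RPKM in controls (log2 fold change -1.83, adjusted p = 0.00434). Some imprinted genes did not follow. H19 had 1.99, 3.35, 2.57 and 0.223 RPKM in Znrf3 cKO libraries and 3.82, 3.55, 1.2 and 1.91 RPKM in controls (adjusted p = 0.71), and Cdkn1c, an inhibitor of the cell cycle that is abundant in the cortex, had 35.0, 30.9, 55.2 and 54.9 RPKM in Znrf3 cKO libraries and 34.4, 35.0, 26.2 and 41.9 RPKM in controls (adjusted p = 0.451). Chromaffin cells express several of the genes that fell, and the chromaffin list fell in the same libraries. Its part in these values was not tested.

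Other signalling lists gave few calls, where 2.25% of all tested genes rose and 5.5% fell. Of 32 tested genes of TGF-β, activin and BMP signalling 1 fell and none rose, with a median of -0.01, and among 17 tested Notch genes Dlk1 was the one that fell. None of 16 tested FGF ligands, receptors and targets passed (median -0.18). Of 25 tested nuclear receptors, Nr6a1 and Nr1h4 rose and Nr2f2 fell. The extracellular matrix list, at 2 rises and 6 falls of 32 tested genes (median -0.24), held 1 fall and no rise without Znrf3 cKO library 1, and 3 falls without Znrf3 cKO library 3 or 4 or without control library 1, 2 or 4. The antioxidant list, at 2 rises and 6 falls of 29 (median -0.14), likewise held 2 falls and no rise without Znrf3 cKO library 1 or 3, and 3 falls without Znrf3 cKO library 4 or without control library 3 or 4. Neither list therefore moved stably.

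The largest rise by log2 fold change was that of Nr6a1, an orphan nuclear receptor otherwise known from germ cells and the early embryo. It had 10.4, 10.7, 10.7 and 7.23 RPKM in Znrf3 cKO libraries, against 1.08, 0.873, 0.911 and 1.58 RPKM in controls. The means differed 8.78-fold (log2 fold change 2.35, SE 0.149, adjusted p = 0.000237). Nr6a1 lies on chromosome 2 (mm10, chr2:38723370-38927688), next to Nr5a1, the source of the Cre driver, with 213146 bases between their starts. The Cre transgene carries sequence from the Nr5a1 region, and whether it contributes reads or expression to Nr6a1 was not tested. Whether the library scaling is the same over the whole series was not tested. Across the series, the 32 Znrf3 cKO libraries held 4.12 to 12.3 RPKM of Nr6a1 (median 6.94). The 37 control libraries held 0.701 to 12.2 RPKM (median 1.16), of which 32 were at most 2.17 RPKM and 5 were at 5.39 RPKM or more. None of those 5 was from 4 weeks. The 5 were male 6 weeks library 4 (12.2 RPKM), male 12 weeks library 3 (8.92 RPKM), female 12 weeks library 4 (5.93 RPKM), female 78 weeks library 1 (5.82 RPKM) and male 78 weeks library 1 (5.39 RPKM). In males at 4 weeks the labels and Nr6a1 thus divide the libraries the same way.

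**Figure D4:**
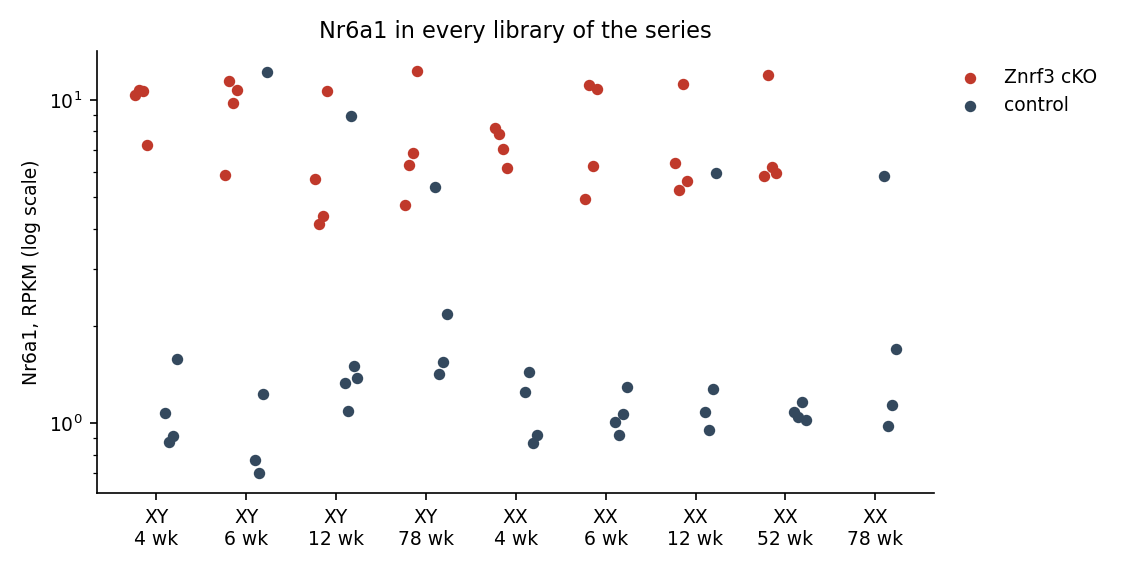
Nr6a1 in RPKM (log scale) in the 32 Znrf3 cKO and 37 control libraries of the series, by sex and age. At 4 weeks every Znrf3 cKO library is above every control, and 5 controls of later ages lie among the Znrf3 cKO libraries.

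Close to the driver gene most tested neighbours were not called in either direction, such as Nek6 (log2 fold change 0.17, adjusted p = 0.307) and Psmb7 (0.06, adjusted p = 0.752). Besides Nr6a1, the called neighbours were Adgrd2-ps, Scai and Olfml2a. Adgrd2-ps, a pseudogene at chr2:38671158-38687651, averaged 0.594 RPKM in Znrf3 cKO and 0.118 RPKM in control libraries. These levels are low, but it passed the threshold (log2 fold change 0.50, adjusted p = 0.0259). Nr5a1 itself, the master regulator of steroidogenic cells, had 189, 239.9, 184 and 351 RPKM in Znrf3 cKO libraries and 107, 127, 178 and 242 RPKM in controls (adjusted p = 0.291). Scai, 476192 bases from the Nr5a1 start, averaged 2.68 ± 0.116 RPKM in Znrf3 cKO and 1.45 ± 0.136 RPKM in control libraries (log2 fold change 0.59, adjusted p = 0.00313), and Olfml2a, an extracellular protein gene that begins beside Nr6a1, fell (log2 fold change -0.65, adjusted p = 0.00902). Within 1 Mb of Znrf3 on chromosome 11, Camk2b, a calmodulin-dependent kinase of neurons, changed by -1.07 (adjusted p = 0.00969). It had 0.200, 0.519, 0.257 and 0.0932 RPKM in Znrf3 cKO libraries, against 1.33, 1.03, 2.59 and 1.83 RPKM in controls, without overlap.

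The other large rises came from several functions. Rhcg, an ammonia transporter, had 11.5, 10.6, 8.87 and 6.67 RPKM in Znrf3 cKO libraries, against 2.60, 2.96, 0.899 and 1.19 RPKM in controls (log2 fold change 1.88, adjusted p = 0.00414). Trank1, a large ankyrin-repeat protein, had 84.6, 93.2, 77.4 and 50.8 RPKM in Znrf3 cKO libraries, against 27.4, 17.4, 27.6 and 30.9 RPKM in controls (log2 fold change 1.52, adjusted p = 0.0049). The groups did not overlap for either gene. Apoc4, an apolipoprotein, rose by 1.45 on the log2 scale, Hs6st2, which sulfates heparan sulfate, by 1.28, Ildr2 by 1.25 and Sytl5, a Rab27 effector, by 1.18. Maoa, monoamine oxidase A of the outer mitochondrial membrane, which degrades catecholamines and serotonin, had 41.5, 46.4, 36.0 and 49.3 RPKM in Znrf3 cKO libraries, against 18.8, 18.6, 22.5 and 18.5 RPKM in controls (2.21-fold, adjusted p = 0.00111). Its direction was opposite to that of the catecholamine-synthesis enzymes.

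Mitochondrial and signalling genes were also among the rises. Mgarp, a mitochondrial protein of steroidogenic cells, had 673, 639.7, 639 and 862 RPKM in Znrf3 cKO libraries, against 412, 417, 412 and 363 RPKM in controls (log2 fold change 0.80, adjusted p = 0.00449). It had the largest difference of mean RPKM among the genes that rose. Dnajc15, a chaperone of the mitochondrial inner membrane, averaged 30.3 ± 1.51 RPKM in Znrf3 cKO and 15.2 ± 1.116 RPKM in control libraries (adjusted p = 0.00044). The aldo-keto reductases Akr1c12 and Akr1c13, which are close copies of each other so that reads may be shared, rose by 0.93 and 0.97, whereas their relative Akr1c18 is the X-zone gene described above. Pbx3, a homeobox partner factor, rose by 0.99, the kinases Pak1 and Pak3 by 0.93 and 0.96, and Cdk5rap2 and Cep85, both of the centrosome, by 0.91 and 0.75. Ogt, which attaches N-acetylglucosamine to proteins, rose by 0.64 and Nr1h4, the bile acid receptor, by 0.68. Kit, a receptor tyrosine kinase, rose by 0.72 (adjusted p = 0.013, or 0.0512 without Znrf3 cKO library 1). Gpnmb, a glycoprotein of macrophages and other cells, was at 1.82, 1.28, 1.67 and 1.98 RPKM in Znrf3 cKO libraries and 0.0898, 0.157, 0.551 and 0.224 RPKM in controls (adjusted p = 0.00224). Among glutathione transferases, Gsta4 changed by -1.08 and Gsta3 by -1.58 on the log2 scale.

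KRAB zinc-finger genes lie in clusters of near-copies that arose by duplication, and most are thought to silence transposable elements. A pair of these clusters held 33 of the 430 rises. Both windows were drawn after the values were seen, and because the copies share sequence, reads may be assigned to the wrong member, so the counts of single genes are uncertain. On chromosome 2 (mm10, chr2:175010241-178078476 from the first to the last tested gene), 23 of 67 tested genes rose and none fell, where 2.25% of all tested genes rose. Of the 67, 65 had a log2 fold change above 0, with a median of 0.37 against 0.02 over all genes tested. Without Znrf3 cKO library 1 the number of rises was 11, which was the lowest of the 8 fits, and 20 was the highest. On chromosome 4 (chr4:145510759-147809840), 10 of 51 tested genes rose and none fell, with a median of 0.15 and 8 to 10 rises when a library was left out. Outside both windows, 14 of 308 tested genes named Zfp rose, beside the same 2.25% over all genes.

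Zfp971 had 5.71, 6.15, 5.88 and 5.86 RPKM in Znrf3 cKO libraries, against 3.38, 3.21, 3.37 and 3.32 RPKM in controls (log2 fold change 0.67, SE 0.0656, adjusted p = 0.000989). Zfp965 had 9.87, 9.54, 9.65 and 9.28 RPKM in Znrf3 cKO libraries and 4.79, 4.97, 6.02 and 4.91 RPKM in controls (1.85-fold, adjusted p = 0.00124). For both genes the gap between the groups was wider than the range within either group. Zfp966, Zfp967, Zfp968, Zfp969 and Zfp973 of the same cluster rose by 0.72, 0.90, 0.80, 0.73 and 0.76. In the chromosome 4 cluster Zfp982, Zfp992 and Zfp993 rose by 0.92, 0.93 and 0.81, and Zfp950, which is outside both windows on chromosome 19, by 0.78.

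The promoters of the chromosome 2 cluster show how alike its members are. A search for the longest stretch common to the 250 bases before the start of 6 of its Zfp genes (Zfp965, Zfp966, Zfp967, Zfp968, Zfp971 and Zfp973) gave 83 bases. These 6 were picked among the genes that rose, and Zfp969 had no entry in the promoter table. On either strand the stretch occurred in 19 of 51 promoters in the window (37.3%) and in none of the other promoters of the 32851 searched. The examples from RefSeq (GRCm38.p6, plus strand) are shown with the common stretch in capitals, at chr2:175372313-175372435 for Zfp968, chr2:175469862-175470024 for Zfp965, chr2:176670399-176670521 for Zfp973 and chr2:178023121-178023283 for Zfp971.
Zfp968: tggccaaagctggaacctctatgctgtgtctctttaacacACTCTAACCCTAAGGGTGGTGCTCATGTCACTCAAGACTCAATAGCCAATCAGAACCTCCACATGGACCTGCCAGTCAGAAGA
Zfp965: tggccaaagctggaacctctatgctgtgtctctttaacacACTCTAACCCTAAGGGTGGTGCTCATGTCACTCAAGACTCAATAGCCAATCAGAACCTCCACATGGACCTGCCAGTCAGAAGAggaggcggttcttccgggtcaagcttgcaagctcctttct
Zfp973: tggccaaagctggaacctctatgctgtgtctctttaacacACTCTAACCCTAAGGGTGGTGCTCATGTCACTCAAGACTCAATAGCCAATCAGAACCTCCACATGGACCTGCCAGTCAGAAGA
Zfp971: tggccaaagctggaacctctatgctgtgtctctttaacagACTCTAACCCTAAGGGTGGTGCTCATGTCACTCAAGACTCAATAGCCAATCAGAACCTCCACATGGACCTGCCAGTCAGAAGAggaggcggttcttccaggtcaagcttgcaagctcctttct
The stretch ended at the start in Zfp968 and Zfp973 and began 123 bases before it in Zfp965 and Zfp971. Of the 19 genes with the stretch, all of them tested, 10 rose and 9 did not, and of the 48 other tested genes of the window 13 rose. Since 6 of the 10 were used to find the stretch, these counts are a description only.

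**Figure D5:**
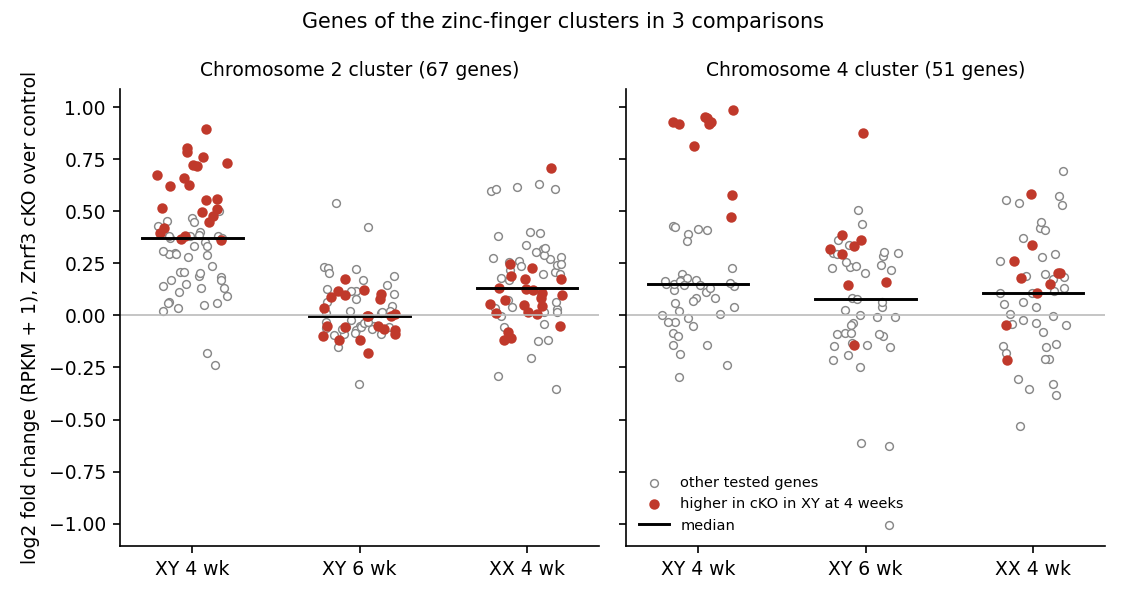
Log2 fold changes (log2(RPKM + 1) scale) of Znrf3 cKO over control for the tested genes of the zinc-finger clusters on chromosomes 2 and 4 in males at 4 weeks, males at 6 weeks and females at 4 weeks, with filled points for the genes that rose in males at 4 weeks and lines at the medians. On chromosome 2 the median is 0.37 in males at 4 weeks, close to 0 in males at 6 weeks and 0.13 in females at 4 weeks. On chromosome 4 it is 0.15, 0.08 and 0.11 in the same order.

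The same clusters were read in males at 6 weeks and in females at 4 weeks, comparisons that each use other libraries. In males at 6 weeks, where 2.81% of genes rose and 7.19% fell, no tested gene of either cluster passed the threshold as a rise. The median there was -0.002 on chromosome 2 and 0.08 on chromosome 4, where single genes ran from -1.01 (Zfp990) to 0.87 (Zfp982). In females at 4 weeks, where 14.3% rose and 9.55% fell, 8 of 67 genes rose on chromosome 2 and 7 of 51 on chromosome 4. Tests of a difference between knockout effects also use the libraries of males at 4 weeks, by whose values the windows were drawn. A difference in these clusters was therefore favoured in advance, and the counts are a description only. Between males and females at 4 weeks, 8 genes of the chromosome 2 cluster and 2 of the chromosome 4 cluster passed the threshold, where 2.68% of all tested genes did. Between 4 and 6 weeks in males none passed, where 0.196% of all tested genes did. Zfp971 is one of the 8, with a male minus female difference of 0.78 on the log2 scale (adjusted p = 0.0346), as are Zfp968 (0.75, adjusted p = 0.0429) and Zfp973 (0.66, adjusted p = 0.0435).

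Over all genes, these tests of a difference were few and unstable. Between 4 and 6 weeks in males, 39 of 19873 genes passed (0.196%), with 2458 at an unadjusted p under 0.05, and leaving out 1 of the 16 libraries gave 0 to 65 (0 without control library 3 of 4 weeks or without Znrf3 cKO library 3 of 6 weeks, 65 without Znrf3 cKO library 4 of 6 weeks). Znrf3 cKO library 3 of 6 weeks was shallow, at 11.1M recovered reads, where the other libraries of males at 6 weeks held 29.3M to 42.2M. Zfp36 was among the 39, with a difference of -1.5 on the log2 scale between the effects at 4 and 6 weeks (adjusted p = 0.0166), and so was Gsta3 (difference -1.60, adjusted p = 0.0499). Between males and females at 4 weeks, 544 of 20297 passed (2.68%), and leaving out 1 of the 16 libraries gave 0 to 2156 (0 without male Znrf3 cKO library 2, 2156 without female control library 1). Ogt was among the 544, with a male minus female difference of 0.52 (adjusted p = 0.0454). No gene passed in all 16 fits of either test, so none of the differences named here held throughout. Each test had a fit that called no gene at all, so this outcome does not tell the named genes apart.

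The main lists had the following values in the other comparisons, each taken by itself. Of all tested genes, 7.19% fell in males at 6 weeks and 9.55% in females at 4 weeks, against 5.5% in males at 4 weeks. In males at 6 weeks 29 of 33 chromaffin genes fell (median -1.90) and in females at 4 weeks 27 of 30 (median -1.29). Capsule and fibroblast markers fell in 5 of 17 cases in males at 6 weeks and in 11 of 17 in females at 4 weeks, and members of the IGF and imprinted list in 11 of 25 cases in males at 6 weeks and 11 of 26 in females at 4 weeks. Dlk1 changed by -2.90 in males at 6 weeks (adjusted p = 0.000284) and by -2.78 in females at 4 weeks (adjusted p = 5.32e-05), and Lgr5 by -1.86 in males at 6 weeks (adjusted p = 0.000227) and -1.48 in females at 4 weeks (adjusted p = 5.32e-05). Among the rises, Trank1 changed by 1.56 in males at 6 weeks (adjusted p = 0.00379) and 1.21 in females at 4 weeks (adjusted p = 0.0032), and Dnajc15 by 0.94 in males at 6 weeks and 1.2 in females at 4 weeks. Rhcg was at 0.21 in males at 6 weeks (adjusted p = 0.708) and Sytl5 at 0.28 (adjusted p = 0.407), and the test of the difference from 4 weeks gave adjusted p = 0.144 for Rhcg and 0.167 for Sytl5. Myc, at 0.01 in males at 4 weeks, changed by 0.72 in males at 6 weeks and 1.02 in females at 4 weeks, and its difference from males at 4 weeks had adjusted p = 0.185 for males at 6 weeks and 0.0517 for females at 4 weeks.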

How the data were processed

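RNA of whole mouse adrenals was sequenced from poly(A)-selected, stranded libraries, and the authors deposited RPKM per gene, made from read counts of HISAT2 2.2.1 alignments to mm10. Of 73 columns, 4 from females at 78 weeks repeated those of males and were left out of the values over the series. Genes averaging 0.5 RPKM or more in either group were tested on log2(RPKM + 1) with limma 3.58.1 (trend; R 4.3.3), with 4 libraries in each group and no covariate, and adjusted p values by Benjamini-Hochberg. Differences of knockout effects were contrasts over 4 groups. A count test was not used for the main values because counts were not given. The RPKM steps returned whole reads, to within 0.02, for 98.4% to 98.6% of values per library, and limma with precision weights on these reads called 1560 genes. Named genes were list members, genes that check the labels, the largest changes that held without any 1 library with at least 5 RPKM in the higher group, the largest differences of mean RPKM, and neighbours of Nr5a1 or Znrf3. Those named here are part of these, and the zinc-finger windows were added after their values were seen. Members and lists were chosen with earlier results of these data known. Alternatives were another pseudocount, other filters, a fold threshold, a common library sum, 1 fit over all groups and leaving out each library. The steps were tested on simulated data.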

Additional observations from a re-analysis of the deposited data

Results flagged for a closer look

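Single libraries stood apart from the other 3 of their group in 22 of 298 groups of values tested by Dixon's criterion, where chance gives about 1 in 20. Of these, 7 were in Znrf3 cKO library 4 and 5 in Znrf3 cKO library 2, 1 in Znrf3 cKO library 3, and 4, 3 and 2 in control libraries 2, 3 and 4. In Znrf3 cKO library 2, Syt1 was at 3.21 RPKM (others 0.263 to 0.740), Lipe was at 19.3 RPKM (others 14.3 to 15.1) and Top2a was at 6.46 RPKM (others 3.96 to 4.30). Also in Znrf3 cKO library 2, Ccnb1 was at 2.81 RPKM (others 1.63 to 1.69) and Cdk5rap2 was at 6.80 RPKM (others 7.94 to 8.18). In Znrf3 cKO library 3, Meg3 was at 38.8 RPKM (others 24.4 to 26.0). In Znrf3 cKO library 4, Ddx3y was at 34.4 RPKM (others 22.5 to 24.4), Apcdd1 was at 3.09 RPKM (others 4.63 to 4.95) and Zfp36 was at 8.69 RPKM (others 6.11 to 6.47). Also in Znrf3 cKO library 4, Nr4a1 was at 359 RPKM (others 47.3 to 56.1), Nr4a2 was at 40.2 RPKM (others 1.27 to 1.57) and Nr6a1 was at 7.23 RPKM (others 10.4 to 10.7). Also in Znrf3 cKO library 4, Mgarp was at 862 RPKM (others 639 to 673). In control library 2, Eif2s3y was at 15.98 RPKM (others 22.8 to 24.2), Dbh was at 151 RPKM (others 100.8 to 109) and Gsta4 was at 29.9 RPKM (others 20.6 to 21.98). Also in control library 2, Scai was at 1.25 RPKM (others 1.49 to 1.54). In control library 3, Cidec was at 88.7 RPKM (others 34.5 to 40.9), Maoa was at 22.5 RPKM (others 18.5 to 18.8) and Zfp965 was at 6.02 RPKM (others 4.79 to 4.97). In control library 4, Kcnk3 was at 340.1 RPKM (others 306 to 309) and Mgarp was at 363 RPKM (others 412 to 417).

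The knockout effect differed between groups in a direct test for 6 named genes. The male 4 minus 6 weeks difference was -1.5 for Zfp36 (adjusted p = 0.0166) and -1.60 for Gsta3 (adjusted p = 0.0499) on the log2 scale. Both fell at 4 weeks, and at 6 weeks the changes were 0.52 for Zfp36 (adjusted p = 0.077) and 0.02 for Gsta3 (adjusted p = 0.967). Between males and females at 4 weeks, the male minus female difference was 0.78 for Zfp971 (adjusted p = 0.0346), 0.75 for Zfp968 (adjusted p = 0.0429), 0.66 for Zfp973 (adjusted p = 0.0435) and 0.52 for Ogt (adjusted p = 0.0454). None of these held in all 16 fits that left a library out, which no gene could do, since each test had a fit that called no gene.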

How the results depend on the processing

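Of 114 named genes past the threshold, 104 stayed past it without any 1 library, and all 10 that did not were lost without Znrf3 cKO library 1. No called gene among the 151 named changed direction under up to 14 alternatives, of which 1 could not be run for each of 16 genes (15 of them under the filter at 2 RPKM). Of the 2098 values, 2048 kept their side of the threshold, 37 lost the call and 13 gained it. The count of 1480 called genes became 348 (32 rises, 316 falls) with a log2 fold change of at least 1 required, and 942 (322 rises, 620 falls) when a mean of at least 2 RPKM was required, which tests fewer genes. Leaving out 1 library gave 702 to 1419. It was 1425 (418 rises, 1007 falls) at a pseudocount of 0.1 and 1310 (323 rises, 987 falls) with no filter. For the 39 genes whose effect differed between 4 and 6 weeks, a pseudocount of 0.1 left 0 (limma; 2458 had an unadjusted p under 0.05 in the main setting), no filter 15 and a common library sum 7, and leaving out 1 library gave 0 to 65. For the 544 genes that differed between males and females, the counts were 357, 53 and 145 under the same settings, 87 in 1 fit over all groups and 0 to 2156 without 1 library. The cause of these shifts was not tested. No paired analysis was possible because the labels give no replicate numbers.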
